A study of Mus musculus with 6 samples.

Results

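The 7 genes *Lrp1*, *Scarb1*, *Lipc*, *Lcat*, *Pltp*, *Sort1* and *Mttp* encode receptors, an assembly protein, a sorting protein and plasma remodelling proteins of lipoprotein metabolism. They were taken by name as a set, with earlier results of these data known, and each was matched to 1 of the 54446 genes listed in every liver library. RNA was sequenced from the livers of 3 wild-type (WT) and 3 *Fmo5*-/- mice, 1 library per mouse, to find transcripts that differ when the flavin-containing monooxygenase FMO5 is missing. All 6 mice were C57BL/6J males aged 32 weeks, bred at one university, fed standard chow and kept in adjacent cages, with livers taken in the morning and frozen. The knockout was generated on the same C57BL/6J background and is a whole-body loss of the gene rather than one limited to liver. Whole liver holds several cell types, so fewer cells of a type and less RNA per cell cannot be told apart for any gene below. The p-values set the difference between genotypes against the spread between mice within a genotype, for these 6 mice.

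The liver both makes and clears lipoproteins. Microsomal triglyceride transfer protein, the product of *Mttp*, loads lipid onto apolipoprotein B in the endoplasmic reticulum, and the nascent particles then pass through the secretory route, where sortilin (*Sort1*) can divert them. In plasma and in the liver sinusoids, hepatic lipase (*Lipc*), lecithin-cholesterol acyltransferase (*Lcat*) and phospholipid transfer protein (*Pltp*) remodel the particles, and LRP1 and the HDL receptor SR-BI (*Scarb1*) take up remnants and cholesteryl ester.

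Between 44886286 and 52338675 reads per library were counted on genes. *Fmo5* checked the labels, with normalized counts of 39808, 37405 and 30240 in the WT livers and 1071, 1102 and 1194 in the *Fmo5*-/- livers. Hepatocyte markers were abundant in every library, and the 6 of them summed to 4631840 to 6024450 normalized counts in WT and 4644900 to 5983750 in *Fmo5*-/-. Markers of Kupffer cells, the resident macrophages of liver, differed between genotypes. Their 6 genes summed to 8754, 8668 and 7356 in WT replicates 1 to 3 and to 21603, 20657 and 11681 in *Fmo5*-/- replicates 1 to 3, and all 6 had higher estimates. By the edgeR rule given below 1 of the 5 with a mean of 500 or more was called, against 0.55% of all such genes in the higher direction, and 4 passed by DESeq2, against 2.8%. *Marco* was the one marker of the 6 whose genotypes overlapped, with 676 normalized counts in *Fmo5*-/- replicate 3 and 468 to 790 in WT. Summed markers did not overlap for lymphocytes either, at 594 to 794 in WT and 882 to 1968 in *Fmo5*-/-. Most of that sum was *Ptprc*, a gene of all leukocytes, at 473 to 630 in WT and 670 to 1401 in *Fmo5*-/-, and 4 of the 5 markers were higher without overlap, as were 5 of the 6 Kupffer cell markers, against 13.9% of all 16734 genes tested. The T cell markers *Cd8a* and *Cd3e* differed by 3.39 and 1.43 on the log2 scale (edgeR adjusted p = 0.0884 and 0.120, DESeq2 adjusted p = 0.00236 and 0.0273), and the B cell markers *Cd79a* and *Ms4a1* by 0.35 and 0.17, with overlap in *Ms4a1*. *Cd8a* and *Cd3e* had low counts and differed by 2.31 and 0.73 without *Fmo5*-/- replicate 2. Summed markers overlapped between genotypes for sinusoidal endothelial cells, stellate cells and cholangiocytes, and no marker was at 0 over the libraries.

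All 7 genes were well expressed, so counting error was small beside the differences between mice: the least abundant, *Sort1*, had 974 to 1839 raw counts per library. A gene was called when the adjusted p of edgeR's quasi-likelihood test was under 0.05 and the mean normalized count was 500 or more. By this rule 1 of the 7 genes was called, *Mttp*, which was lower in *Fmo5*-/- livers. The background was 1.61% of 7819 genes in either direction and 1.06% in the lower direction. The median log2 fold change was -0.04 over the 7 genes and -0.06 over all 7819 genes. *Mttp* was also the only one of the 7 whose genotypes did not overlap, against 31.3% of the 7819 genes. *Lrp1* and *Scarb1* had higher estimates with unadjusted p-values under 0.05, as did 7.62% of the 7819 genes in the higher direction and 25.2% in either, and neither passed after adjustment.

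**Figure D1:**
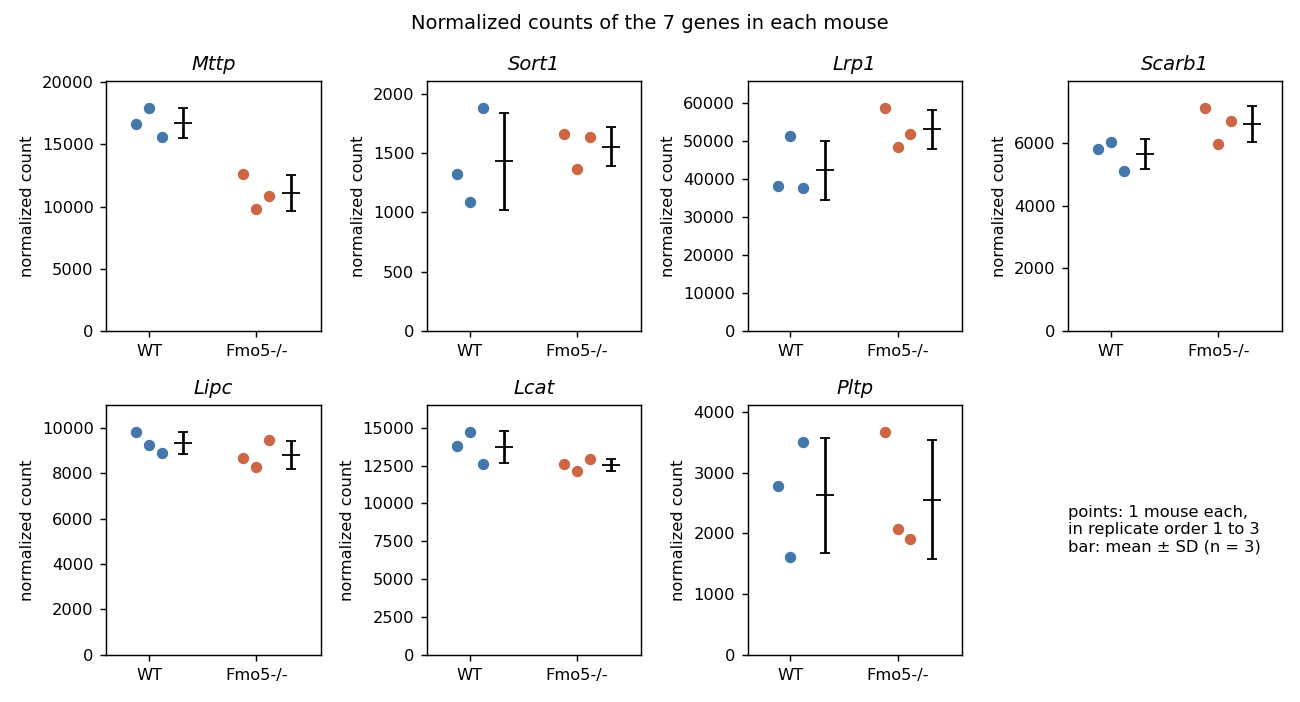
Normalized counts of the 7 genes in each mouse, on axes that start at 0, with WT in blue, *Fmo5*-/- in orange and the black bar showing mean ± SD (n = 3). *Mttp* is the one panel in which all *Fmo5*-/- points lie below all WT points, with 12648 as the highest *Fmo5*-/- value and 15561 as the lowest WT value.

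The sequence just upstream of the annotated start is shown for 3 genes: *Mttp* because it was called, *Lrp1* because it had the highest estimate in the other direction, and *Pltp* because it varied most between mice. Each run is the 250 bases before a RefSeq gene start, from the GRCm38.p6 assembly (mm10), written 5′ to 3′ on the minus strand that all 3 genes use. Capitals mark matches to a CCAAT box (CCAAT) or a GC box (GGGCGG), searched on both strands.
Mttp, chr3:138143419-138143668: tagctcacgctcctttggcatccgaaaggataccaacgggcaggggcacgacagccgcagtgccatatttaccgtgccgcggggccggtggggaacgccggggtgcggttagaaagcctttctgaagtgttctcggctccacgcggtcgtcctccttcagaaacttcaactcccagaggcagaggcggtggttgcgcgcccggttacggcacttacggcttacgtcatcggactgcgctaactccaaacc
Lrp1, chr10:127621149-127621398: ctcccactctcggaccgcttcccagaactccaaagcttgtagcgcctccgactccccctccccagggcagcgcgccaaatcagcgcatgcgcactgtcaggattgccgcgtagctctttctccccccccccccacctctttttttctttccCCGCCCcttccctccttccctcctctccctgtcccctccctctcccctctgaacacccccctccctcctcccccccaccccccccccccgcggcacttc
Pltp, chr2:164857709-164857958: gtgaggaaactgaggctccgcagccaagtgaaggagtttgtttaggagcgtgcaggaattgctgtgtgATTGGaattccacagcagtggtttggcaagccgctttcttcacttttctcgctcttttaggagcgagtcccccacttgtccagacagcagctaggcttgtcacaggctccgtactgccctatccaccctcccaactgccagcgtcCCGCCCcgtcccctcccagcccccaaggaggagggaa
The *Mttp* window had a GC content of 61.2%, above the median of 52.4% over 32851 such windows, and held no match to either motif. CCAAT boxes were present in 33.8% and GC boxes in 32.7% of all windows. Nor did the *Mttp* window hold a TATA box (TATAAA, 12.4% of windows), an unfolded protein response core (TGACGTGG, 0.563%) or a sterol regulatory element (0.0731%). It also held no direct repeat of the nuclear receptor site AGGTCA with 1 base (DR1, 0.0335%) or 4 bases (DR4, 0.0152%) between the copies, and no ER stress element (CCAAT, 9 bases, CCACG, 0.113%). The *Lrp1* window, at 67.2% GC, held 1 GC box, 99 to 94 bases before the start. The *Pltp* window held a CCAAT box 182 to 178 bases and a GC box 37 to 32 bases before the start. Windows were also searched for *Lcat*, which held 1 CCAAT box, and for the 2 starts of *Lipc*, of which the upstream one held 3 CCAAT boxes and the downstream one a CCAAT box and a GC box. *Scarb1*, *Sort1* and the downstream coding start of *Mttp*, at 138131377, were not searched. These matches describe the letters in the windows searched, and the motifs absent for *Mttp* concern its upstream window alone.

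*Mttp* lies on chromosome 3 from 138089854 to 138144968 on the minus strand (GENCODE vM21), 40.4 Mb from *Fmo5* on the same chromosome. Normalized counts were 16669, 17941 and 15561 in the WT livers and 12648, 9820 and 10855 in the *Fmo5*-/- livers. Every *Fmo5*-/- liver was below every WT liver, and *Fmo5*-/- replicate 2 was the lowest of the 6. Reads in no gene made up 8.63% and 8.28% of *Fmo5*-/- replicates 2 and 3, the livers with the lowest *Mttp*, and 6.86% to 7.02% of the other 4 libraries; their part in the *Mttp* values was not tested. The mean fell from 16724 ± 1191 to 11108 ± 1431 normalized counts (SD, n = 3 each). On the log2 scale the difference was -0.59 with a standard error of 0.11 and a 95% confidence interval from -0.84 to -0.34, which is 0.664 of the WT level (edgeR adjusted p = 0.0468). DESeq2 gave -0.61 with an adjusted p of 1.07e-04, and by DESeq2 9.55% of the 7819 genes passed.

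The call for *Mttp* was close to the threshold. When any 1 of the 6 libraries was left out, the log2 difference stayed between -0.70 and -0.51, but the adjusted p of edgeR rose to between 0.0543, without *Fmo5*-/- replicate 3, and 0.131, without WT replicate 1. *Mttp* ranked 100 by p among the 7819 genes. The gene's dispersion between mice, a coefficient of variation of 11.9%, was at percentile 75.2 of those genes.

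Read counting could touch *Mttp* at 2 places. Its exons share 457 bases with *Trmt10a* and 132 bases with *Gm43691*, both on the other strand, and reads there were not given to either gene in counts made without strand. The sum of the counts made for each strand was 1.05 times the count used here, and on that sum the log2 difference was -0.59 (edgeR adjusted p = 0.0484). Coding transcripts of *Mttp* start at 2 sites, 138143388 and 138131377, and counts per gene do not separate them. The window shown above lies just upstream of the RefSeq start at 138143418 and so near, but not adjoining, the first of these sites. Chromosome 3 without *Fmo5* held 379 genes with a mean of 500 or more, of which 20, or 5.28%, were called, against 1.41% of 7439 genes on the other chromosomes. Within 20 Mb of *Fmo5*, a span that does not include *Mttp*, 3.57% of 196 genes were called. Whether position plays a part in the *Mttp* difference was not tested.

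*Sort1*, which encodes a Vps10p-domain sorting receptor that binds apolipoprotein B in the secretory route, lies on the plus strand of chromosome 3 from 108284082 to 108361511, 10.6 Mb from *Fmo5*. Normalized counts were 1325, 1087 and 1880 in WT and 1662, 1367 and 1633 in *Fmo5*-/-. The WT livers held both the lowest and the highest value, and the *Fmo5*-/- livers lay between them. The means were 1431 ± 407 and 1554 ± 163 normalized counts (SD, n = 3), and the log2 difference of 0.12 had a 95% confidence interval from -0.33 to 0.57 (edgeR adjusted p = 0.773). Its estimate changed sign without WT replicate 2, to -0.04.

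*Lrp1* encodes a large endocytic receptor that clears remnant particles together with many protease complexes. The gene spans 127538161 to 127621148 on chromosome 10. Normalized counts were 38091, 51207 and 37635 in WT and 58742, 48575 and 51863 in *Fmo5*-/-. The genotypes overlapped at 1 library: WT replicate 2 was above *Fmo5*-/- replicate 2, while the other WT livers were below all *Fmo5*-/- livers. The mean was 42311 ± 7707 in WT and 53060 ± 5188 in *Fmo5*-/- (SD, n = 3). The log2 difference was 0.33 with an interval from 0.01 to 0.64 (unadjusted p = 0.0419, edgeR adjusted p = 0.210). Without WT replicate 2 it was 0.49 (edgeR adjusted p = 0.119), and over the 6 fits with 1 library left out it ran from 0.25 to 0.49. With every gene of at least 1 count kept in the fit, the adjusted p of edgeR was 0.0458, but 981 genes in all were then called, against 126. Macrophages also express *Lrp1*, and the sum of the Kupffer cell markers given above was higher in all 3 *Fmo5*-/- livers; their part in the *Lrp1* values was not tested.

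*Scarb1* on chromosome 5 (125277087 to 125341094) encodes SR-BI, which takes cholesteryl ester from HDL without taking up the whole particle. Normalized counts were 5801, 6018 and 5117 in WT and 7114, 5968 and 6699 in *Fmo5*-/-. The genotypes overlapped narrowly, with *Fmo5*-/- replicate 2 just below WT replicate 2. The log2 difference was 0.22 with a standard error of 0.10 (unadjusted p = 0.0496, edgeR adjusted p = 0.229). *Pdzk1*, whose product holds SR-BI at the hepatocyte surface, had 2473 ± 75 normalized counts in WT and 2246 ± 47 in *Fmo5*-/- (SD, n = 3), without overlap. Of the 7819 genes, 21.9% were lower without overlap. The log2 difference of *Pdzk1* was -0.14, which did not pass (edgeR adjusted p = 0.298), and -0.07 on the sum of the counts per strand.

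*Lipc*, *Lcat* and *Pltp* act on particles outside the cell, and none of these genes was called. *Lipc* on chromosome 9 (70798128 to 70952226) encodes hepatic lipase, which hydrolyses triglyceride and phospholipid of remnants and HDL. Its normalized counts were 9833, 9247 and 8899 in WT and 8663, 8275 and 9455 in *Fmo5*-/-. They overlapped, and the log2 difference of -0.08 had an interval from -0.28 to 0.11 (edgeR adjusted p = 0.625). *Lcat* on chromosome 8 (105939551 to 105943382) encodes the plasma enzyme that esterifies HDL cholesterol. It had 13804, 14744 and 12633 normalized counts in WT and 12618, 12136 and 12900 in *Fmo5*-/-. WT replicate 3 fell within the *Fmo5*-/- range while the other WT livers were above it. The log2 difference was -0.13, with an interval from -0.33 to 0.07 (edgeR adjusted p = 0.443). For *Lipc* and *Lcat* the intervals exclude a difference as large as the estimate for *Mttp*.

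*Pltp* on chromosome 2 (164839518 to 164857711) encodes the transfer protein that moves phospholipid from triglyceride-rich particles to HDL. Normalized counts were 2779, 1620 and 3498 in WT and 3678, 2073 and 1915 in *Fmo5*-/-. The spread within each genotype was wide, and the genotypes had almost the same mean, 2632 ± 947 and 2556 ± 975 normalized counts (SD, n = 3). The log2 difference of -0.04 had an interval from -1.0 to 0.92, so a change of up to 1.89-fold higher or to 0.499 of the WT level lay inside it (edgeR adjusted p = 0.961). The dispersion of *Pltp* was at percentile 98.7 of the 7819 genes, that of *Sort1* at 94.2 and that of *Lrp1* at 87.8, while *Scarb1* was at 58.4, *Lcat* at 45.5 and *Lipc* at 41.6. *Pltp* shares 495 exon bases with *Ctsa* on the other strand, and the sum of its counts per strand was 1.5 times the count used here. On that sum the log2 difference was 0.04, so the sign of so small a difference was not fixed.

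**Figure D2:**
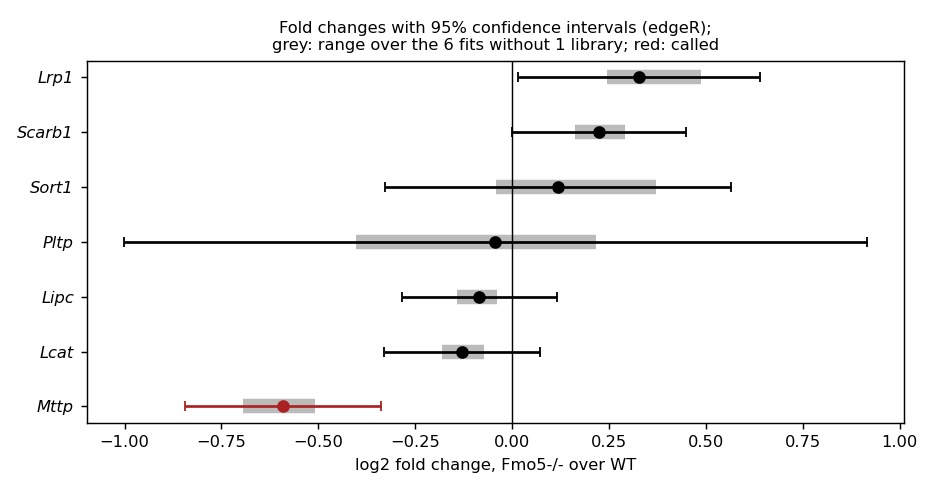
Log2 fold change of each of the 7 genes, *Fmo5*-/- over WT, from edgeR (points) with 95% confidence intervals (lines), and the range of the estimate over the 6 fits that leave out 1 library (grey bars). *Mttp*, in red, lies at -0.59 with its grey bar from -0.70 to -0.51, and *Pltp* has the widest interval, from -1.0 to 0.92.

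The 7 genes also differed in level. As CPM per kb of exon, *Lcat* was highest at 210 ± 16 in WT and 192 ± 5.9 in *Fmo5*-/- (SD, n = 3), and *Lipc* followed at 88.9 ± 4.5 and 83.9 ± 5.7. *Pltp* was at 21.1 ± 7.6 and 20.4 ± 7.8, though its count leaves out the reads shared with *Ctsa*. *Scarb1* was at 13.6 ± 1.1 and 15.9 ± 1.4, overlapping *Pltp* in both genotypes, and *Sort1* was lowest at 3.87 ± 1.1 and 4.21 ± 0.44. Apart from *Mttp* with *Lrp1* and *Pltp* with *Scarb1*, neighbours in this order did not overlap in either genotype. These levels spanned from percentile 64.5 to percentile 98.7 of the 16734 genes tested.

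Only *Mttp* and *Lrp1* changed places in this order. In WT, *Mttp* was at 55.2 ± 3.9 and *Lrp1* at 48.9 ± 8.9 CPM per kb, and their libraries overlapped. In *Fmo5*-/-, *Mttp* was at 36.7 ± 4.7 and *Lrp1* at 61.4 ± 6.0 CPM per kb, and every *Lrp1* value was above every *Mttp* value.

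**Figure D3:**
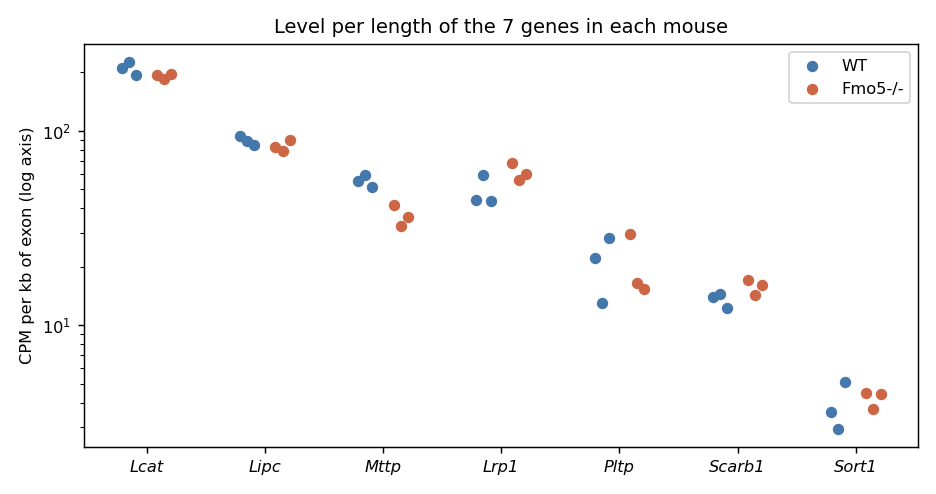
Level of the 7 genes per length, in CPM per kb of exon on a log axis, with 1 point per mouse (WT blue, *Fmo5*-/- orange). *Lcat* is highest, at 185 to 225 in every mouse, and the *Mttp* and *Lrp1* points overlap in WT but are apart in *Fmo5*-/-, at 36.7 and 61.4 on average.

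A ratio of 2 genes within 1 library does not depend on scaling between libraries, so *Mttp* was set against each of the other 6 genes. The ratio of *Mttp* to *Scarb1* was 2.87, 2.98 and 3.04 in the WT livers and 1.78, 1.65 and 1.62 in the *Fmo5*-/- livers. It varied little within a genotype, and the log2 ratio was lower by -0.82 in *Fmo5*-/-. The ratio to *Lcat* was 1.21, 1.22 and 1.23 in WT and 1.00, 0.809 and 0.841 in *Fmo5*-/-, a log2 difference of -0.47. The ratio to *Lrp1* was 0.438, 0.350 and 0.413 in WT and 0.215, 0.202 and 0.209 in *Fmo5*-/-, a log2 difference of -0.93. Ratios to *Lipc* and *Sort1* also did not overlap between genotypes, with log2 differences of -0.51 and -0.75. For these 5 ratios the two-sided exact permutation p was 0.1, the smallest that 3 against 3 allows, and 0.12 after adjustment over the 6 ratios. The ratio to *Pltp* overlapped, at 4.45 to 11.1 in WT and 3.44 to 5.67 in *Fmo5*-/- (exact p = 0.4). Over all 7818 other genes with a mean of 500 or more, 84% of the ratios of *Mttp* to the gene did not overlap, so separation in such a ratio belongs to *Mttp* and is not particular to these partners.

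**Figure D4:**
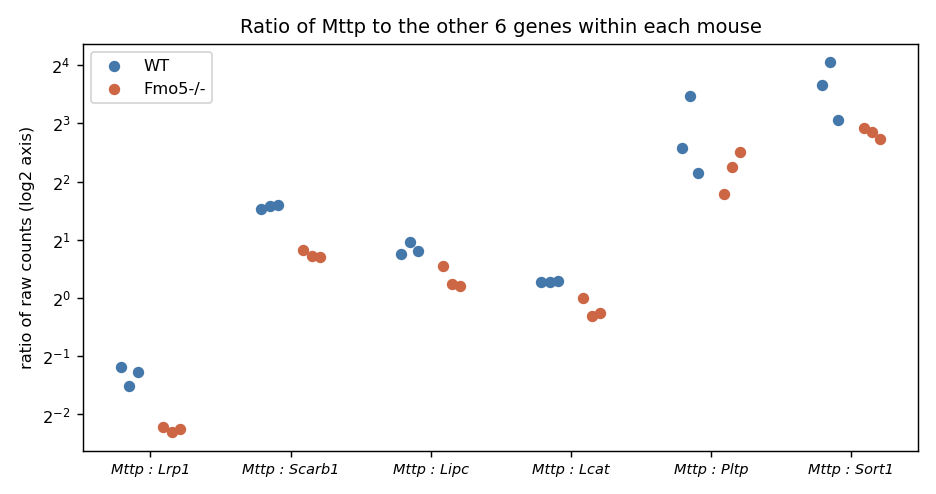
Ratio of the raw count of *Mttp* to that of each of the other 6 genes within each mouse, on a log2 axis, with WT in blue and *Fmo5*-/- in orange. The genotypes are apart in all ratios except the ratio to *Pltp*, and the ratios to *Scarb1* and *Lcat* vary least among the WT mice.

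The mice that carried the high and low values differed from gene to gene. *Fmo5*-/- replicate 1 had the highest *Lrp1*, *Scarb1* and *Pltp* of the 6 livers and, of the *Fmo5*-/- livers, the highest *Mttp*. *Fmo5*-/- replicate 2 was lowest of the 6 for *Mttp*, *Lipc* and *Lcat*. WT replicate 2 had the highest *Mttp* and *Lcat* and the lowest *Pltp* and *Sort1*. To find the genes most like each of the 7, log2 normalized counts were centred on their mean and compared over the 6 libraries with the 7818 other genes of a mean of 500 or more. *Mttp* was closest to *Kyat3*, *Sec23a* and *Abcd3*, with root mean square log2 differences of 0.058, 0.062 and 0.064 against a median of 0.309 over all genes. *Sec23a* encodes a subunit of the COPII coat, which carries cargo out of the endoplasmic reticulum, and had 4273 normalized counts in WT and 2988 in *Fmo5*-/- on average. *Pltp* had no gene within 0.1, and its nearest was *Tat*, a glucocorticoid-responsive enzyme of tyrosine breakdown, at 0.119. *Sort1* was nearest to *Smarcd1* at 0.069 and to *Acss2*, a sterol-regulated acetyl-CoA synthetase, at 0.070. *Lrp1* was nearest to *Arid1a* (0.049), *Scarb1* to *N4bp1* (0.016), *Lipc* to *Immp2l* (0.024) and *Lcat* to *Pbld1* (0.021). These likenesses are descriptions over 6 libraries that include the genotype difference.

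Around *Mttp*, the genes of lipoprotein assembly and secretion all had lower estimates in *Fmo5*-/- on counts made without strand, with no call by edgeR; of the 7819 genes, 5001 had lower estimates. For 1 of them, *Cideb*, the difference was not kept in counts made by strand. The list held 8 genes, of which 6 had genotypes that did not overlap, against 21.9% of the 7819 genes in the lower direction, and 4 passed by DESeq2, against 6.75% in that direction, with *Cideb* in both counts. *Mttp*, *P4hb*, *Sar1b* and *Cideb*, as well as *Sec23a* and *Abcd3* above and *Cd36* below, were named by the study on these same libraries, so their direction is not independent evidence. *P4hb*, which encodes protein disulfide isomerase, the partner subunit of microsomal triglyceride transfer protein, had 70990 ± 4060 normalized counts in WT and 57549 ± 2740 in *Fmo5*-/- (SD, n = 3), a log2 difference of -0.30 (edgeR adjusted p = 0.109). *Apob*, the scaffold of VLDL, had 276375, 309716 and 234256 normalized counts in WT and 233696, 185480 and 228739 in *Fmo5*-/-. Its highest *Fmo5*-/- liver was just below its lowest WT liver, and the log2 difference was -0.34 (edgeR adjusted p = 0.187). *Sar1b*, the GTPase that builds the COPII coat, differed by -0.36 (edgeR adjusted p = 0.0710) and *Mia2*, which helps load large cargo at endoplasmic reticulum exit sites, by -0.37 (0.124). *Cideb*, a lipid droplet protein needed for VLDL lipidation, differed by -0.31 (0.0709) without strand, but by 0.012 on the reads of 1 strand (edgeR adjusted p = 0.955) and by -0.022 on the sum of the counts per strand (0.906). The strands took nearly equal shares of the reads, so counts by strand do not separate genes that overlap on opposite strands. Whether reads of such a gene enter the *Cideb* counts by strand was not tested. *Surf4*, a cargo receptor for apolipoprotein B, differed by -0.21 (0.172). *Tm6sf2* and *Pla2g12b* overlapped between genotypes, with log2 differences of -0.14 and -0.07. The estimate for *Mttp* was further from 0 than that of any of the 8.

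Among 7 lipases and their regulators, 1 was called. *Lpl*, which encodes lipoprotein lipase, had 503, 513 and 505 normalized counts in WT and 1131, 1411 and 788 in *Fmo5*-/-. WT livers were almost equal, every *Fmo5*-/- liver was above them, and the log2 difference was 1.13 with a standard error of 0.19 (edgeR adjusted p = 0.0430, against 0.55% of the 7819 genes called higher). *Lpl* is expressed little in adult hepatocytes and more in macrophages. The Kupffer cell marker *Clec4f* was called higher, with a log2 difference of 0.70 (edgeR adjusted p = 0.0275), a call lost without WT replicate 1 or 2 or *Fmo5*-/- replicate 1 or 2 (edgeR adjusted p up to 0.102). Among the *Fmo5*-/- livers, *Lpl* was highest in replicate 2 and lowest in replicate 3, as were the lymphocyte sum (1307, 1968 and 882) and the Kupffer cell markers *Clec4f* (5907, 6327 and 5085) and *Cd5l* (7129, 7884 and 4277). The other 4 Kupffer cell markers, and with them the sum, were highest in replicate 1 and lowest in replicate 3. The part of either cell type in the *Lpl* difference was not tested. The call for *Lpl* was lost without any 1 WT library or without *Fmo5*-/- replicate 1, with edgeR adjusted p-values of 0.0805 to 0.130. *Lipg*, the endothelial lipase and a relative of hepatic lipase, differed by -0.32 and overlapped. Its estimate was -0.51 without *Fmo5*-/- replicate 1 and -0.13 without *Fmo5*-/- replicate 2.

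None of 10 other receptor genes with a mean of 500 or more was called by edgeR, and 1 passed by DESeq2, a share near the 9.55% of all such genes; 13 were tested. *Cd36*, a fatty acid and scavenger receptor gene, differed by -1.34 and passed by DESeq2 (adjusted p = 0.0114) but not by edgeR (adjusted p = 0.114), with no overlap, at 2137 to 5263 in WT and 1131 to 1594 in *Fmo5*-/-. *Lrp2*, a relative of *Lrp1* known from kidney, differed by -1.13 (edgeR adjusted p = 0.0710, DESeq2 adjusted p = 0.00434) but had a mean of only 81.9 normalized counts. The chaperone gene for LRP1, *Lrpap1*, differed by 0.05 (0.784). *Snx17*, which encodes an adaptor that recycles LRP1 from endosomes, had 815 ± 36 normalized counts in WT and 991 ± 27 in *Fmo5*-/- (SD, n = 3), a log2 difference of 0.28 with no overlap that did not pass (edgeR adjusted p = 0.0884). *Sorl1*, a Vps10p-domain relative of *Sort1*, differed by 0.72 (edgeR adjusted p = 0.120, DESeq2 adjusted p = 0.0409), with the *Fmo5*-/- livers in the same order as for *Lpl*. Its mean of 177.7 normalized counts was under the limit of 500 for a call.

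No HDL or efflux gene and none of the 9 transcription regulators was called. *Apoa1*, the main HDL apolipoprotein, differed by 0.17 (edgeR adjusted p = 0.580), and *Apoe*, a ligand of LRP1, by -0.26 (0.190). The *Apoa1* estimate was 0.07 without WT replicate 1 and 0.40 without WT replicate 3 (edgeR adjusted p = 0.0982). *Abcg1*, a cholesterol exporter known from macrophages, differed by 0.76 (0.0849, and 0.00949 by DESeq2) at a mean of 310.8 normalized counts, with the *Fmo5*-/- livers in the same order as for *Lpl*; the part of other cell types was not tested here either. Among regulators, *Hnf4a*, the hepatocyte factor known to act on *Mttp*, differed by -0.15 (0.489), *Ppara* by -0.39 (0.248) and *Nr1h3*, which encodes LXR alpha, by -0.09 (0.562). Over the fits without 1 library, *Hnf4a* ran from -0.25 to -0.08, *Ppara* from -0.51 to -0.21 and *Nr1h3* from -0.14 to -0.04. With no low-count filter, *Ppara* passed at -0.40 (edgeR adjusted p = 0.00270), where 981 genes in all were called. *Srebf2*, which encodes a sterol-regulated factor, differed by 0.07 (0.753). *Nr1h2*, which encodes LXR beta, was the only 1 of the 9 regulators without overlap, at 0.27 (0.124), where 31.3% of the 7819 genes did not overlap. In all, 1 of 47 genes of the wider list with a mean of 500 or more was called by edgeR, a share of 2.13%, beside the 1.61% of all such genes, and its median log2 fold change over 53 tested genes was -0.06, beside -0.06 over the 7819 genes and 0.01 over all 16734 genes tested.

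**Figure D5:**
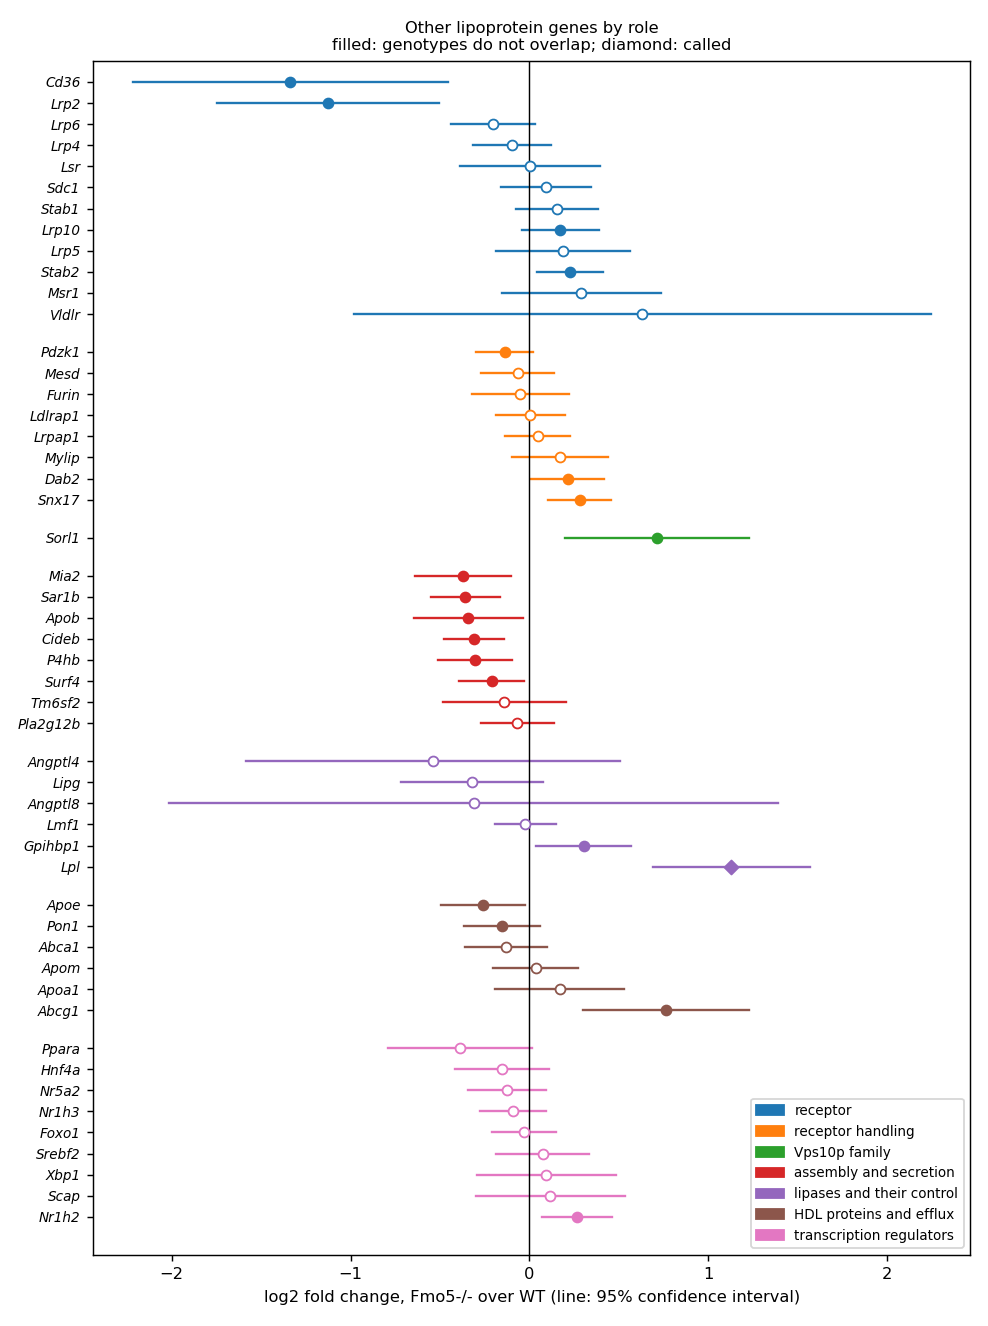
Log2 fold change, *Fmo5*-/- over WT, with 95% confidence intervals for 50 other lipoprotein genes, coloured and ordered by role; filled symbols mark genes whose genotypes do not overlap and the diamond marks the called gene, *Lpl*. The 8 assembly and secretion genes all lie below 0 on these counts made without strand, though *Cideb* was at 0.012 on the reads of 1 strand and -0.022 on the sum of the counts per strand, while receptors, HDL genes and regulators lie on both sides.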

How the data were processed

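Liver RNA of 3 WT and 3 *Fmo5*-/- mice was sequenced as single reads of 75 bases. The authors demultiplexed the reads with bcl2fastq, clipped adapters, mapped to mm10 with STAR 2.6.0c and deposited the raw counts per gene that STAR made, without strand and for each strand. The authors also deposited 1 table of signal values, the raw counts divided by 1 size factor per library (checked), with log2 fold changes and p-values of their own DESeq2 comparison, which were not used. The annotation release is not given in the sources used here, and GENCODE vM21 holds 54409 of the 54446 identifiers. The strands took nearly equal shares, so counts without strand were analysed.

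Reads not counted on genes were left out. Genes were kept by filterByExpr (minimum count 10), scaled by TMM and tested with the robust quasi-likelihood fit of edgeR 4.0.16 in R 4.3.3, with Benjamini-Hochberg adjustment over 16734 genes. The call limits of 0.05 on the adjusted p and 500 on the mean were those of the study. The standard error is the log2 difference over the square root of F. Replicates of a genotype differed beyond sampling noise, with a chi-square per gene of 72.9 to 116.6.

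The 7 genes and all lists were chosen with earlier results of these data known. The genes named are *Fmo5*, the 7 genes, genes of the lists, and the 3 genes most like each of the 7, of which some are printed. Of 58 genes in the wider list, 53 were tested. Alternatives were DESeq2 1.42.0, RLE factors, TMM without the 20 most abundant genes, no low-count filter, the limit of 500 set before the fit, 1 strand, each library left out in turn and, added after seeing the data, the sum of both strand counts. Promoter windows came from RefSeq, which matched 5 of the 7 genes. The steps were tested on simulated data. Of the tested genes of the wider list, 3 are counted but not reported here.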

Additional observations from a re-analysis of the deposited data

How the results depend on the processing

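*Mttp* kept a lower estimate in every alternative run. It was no longer called when genes under the limit of 500 were dropped first (-0.53, edgeR adjusted p = 0.0617, where the median of these genes moved by 0.06) or in any fit without 1 library (-0.70 to -0.51, edgeR adjusted p = 0.0543 to 0.131). The count of the 7 genes called was therefore 0 under the former and 0 in each of the latter. With no low-count filter it was 2, since *Lrp1* then passed at 0.31 (edgeR adjusted p = 0.0458), while the count over all genes went from 126 to 981. *Pltp* turned positive with the limit of 500 (0.012), on 1 strand (0.0077) and on the sum of strand counts (0.037), and ran from -0.40 to 0.22 over the fits without 1 library. *Sort1* ran from -0.042, without WT replicate 2, to 0.37, *Lrp1* from 0.25 to 0.49, *Scarb1* from 0.16 to 0.29, *Lipc* from -0.14 to -0.04 and *Lcat* from -0.18 to -0.07. The wider list had 7 genes called by DESeq2, 9 with no low-count filter, 0 with the limit of 500 and 0 to 2 without 1 library, against 1. Over all genes these counts were 747, 981, 53 and 14 (without *Fmo5*-/- replicate 1) to 258 (without *Fmo5*-/- replicate 3), against 126. Among its genes with no call, *Cideb* became 0.012 on 1 strand and -0.022 on the sum of strand counts, and over the fits without 1 library *Srebf2* ran from -0.027 to 0.17. Over the same fits *Tm6sf2* ran from -0.28 to -0.03, *Pla2g12b* from -0.15 to -0.01 and *Lrpap1* from 0.004 to 0.10. *Lpl* lost its call with the limit of 500 (edgeR adjusted p = 0.0608). The causes were not tested. No paired analysis was possible because the labels give the genotypes no shared replicate numbers. The 3 mice per genotype limit precision more than depth does.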
